A study of Mus musculus with 4 samples.

Results

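Erythroid barcodes were picked out of 2 allograft libraries by their globin content. A barcode was a member when Hba-a1, Hba-a2, Hbb-bs and Hbb-bt together made up at least 20% of its UMIs (unique molecule counts) and mitochondrial transcripts at most 15%, whatever its number of genes. This rule selected 184 of 34841 allograft barcodes, of 56220 in the whole series. The library labelled preSC_CracdKO held 119 of its 16282 barcodes (0.731%, exact 95% binomial interval 0.606 to 0.874) and preSC_WT 65 of 18559 (0.350%, 0.270 to 0.446). Because the members were chosen on globin share, that share is a description here and was not tested, nor were differences from the barcodes left outside.

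The study sequenced single cells of mouse small cell lung cancer, a neuroendocrine carcinoma, from lung tumours named RPR2 and CRPR2 and from tumours grown by grafting preSC cells, a mouse cell line. The genotype labels of the allografts are WT and CracdKO. Each group was 1 library, and the labels used here give neither the strain nor age of the host, nor the site of the graft, the number of animals or the time of collection. Tissue was digested, treated with red cell lysis buffer, strained and cleared of dead cells before 3′ single-cell libraries were made. Cracd, listed under its older name C530008M17Rik, stood at 6.01 CPM (UMIs per 1000000 UMIs outside the 4 adult globin genes) in the other barcodes of preSC_WT and 85.8 CPM in those of the library labelled preSC_CracdKO. Its RNA was therefore higher in the library labelled as the knockout, and the labels do not say which part of the gene was altered, so this 3′ signal checks neither genotype. Erythroid members held 0 Cracd UMIs in preSC_WT and 1 in the library labelled preSC_CracdKO.

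Red cells form in the marrow and spleen from progenitors that divide, fill with haemoglobin, expel the nucleus and enter the blood as reticulocytes, which still carry RNA for a short time. Haemoglobin joins alpha chains, encoded in the mouse by Hba-a1 and Hba-a2, with beta chains, encoded by Hbb-bs and Hbb-bt, around haem, an iron-containing ring. Reticulocytes lose their ribosomes and mitochondria by autophagy and proteolysis, while transcripts for globin and haem synthesis are among the last to go. Embryonic chains such as Hba-x and Hbb-y are used only before birth.

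The 4 adult genes lie in 2 clusters, and how far their transcripts differ limits which of them a 3′ read can be assigned to. In the GENCODE annotation of mm10, Hba-a1 is at chr11:32283511-32284465 and Hba-a2 at chr11:32296489-32297298, both on the plus strand. Hbb-bs is at chr7:103826534-103828096 and Hbb-bt at chr7:103812524-103813996, both on the minus strand, and each of the 4 transcripts has 3 exons. The coding parts of Hba-a1 and Hba-a2 differed at 1 of 429 bases, C381T, counted from the first base of the start codon with the Hba-a1 base first. Hbb-bs and Hbb-bt differed at 1 of 444, C417T, with the Hbb-bs base first. These stretches of the coding transcripts, 5′ to 3′, are shown because they hold the only base by which each coding pair differs, in capitals.
Hba-a1: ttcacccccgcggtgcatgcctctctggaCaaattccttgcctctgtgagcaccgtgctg
Hba-a2: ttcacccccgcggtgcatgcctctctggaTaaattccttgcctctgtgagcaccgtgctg
Hbb-bs: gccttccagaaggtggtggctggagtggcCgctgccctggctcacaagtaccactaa
Hbb-bt: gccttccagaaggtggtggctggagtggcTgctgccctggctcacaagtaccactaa

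After the stop codon the annotated Hba-a1 transcript has 74 bases and Hba-a2 90, which matched at 74 of 74 aligned positions, so the split of alpha counts between these 2 copies is uncertain. The same stretch of Hbb-bs and Hbb-bt was 70.7% identical over 131 and 132 bases, and counts for this pair rest on that difference. Alpha and beta reads are the least easily confused, since the coding parts of Hba-a1 and Hbb-bs shared 60.5% of bases. How reads that match both copies of a pair were counted is not stated in the sources used here. The alpha transcripts are more alike after the stop than the beta ones, so alpha and beta totals may be affected unequally.

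Upstream of the start site, short windows of the globin promoters and of Alas2, which encodes the first enzyme of haem synthesis in red cells, are shown because these genes were abundant together in the members. Sequences are from RefSeq on GRCm38.p6, 30 bases each, on the strand of the gene. The first set covers 95 to 66 bases before the start site, and capitals mark motifs searched on both strands: the letters CACCC, a site of some erythroid regulators, CCAAT, a common promoter box, TATAA, the TATA box, and the letters GATA, bound by GATA factors.
Hba-a1, chr11:32283577-32283606, plus strand: aaaccagCCAATgagaactgctccaagggc
Hba-a2, chr11:32296397-32296426, plus strand: ccagCCAATgagaactgctccaagggcgtg
Hbb-bs, chr7:103827994-103828023, minus strand: agccaCACCCtggtaagggCCAATctgctc
Hbb-bt, chr7:103813989-103814018, minus strand: gggtaaCACCCtggcATTGGCCAATctgct
Alas2, chrX:150547322-150547351, plus strand: ctttgcttttTATCtttagcagaggcctga

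The second set covers 40 to 11 bases before the start site.
Hba-a1, chr11:32283632-32283661, plus strand: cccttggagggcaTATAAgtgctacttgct
Hba-a2, chr11:32296452-32296481, plus strand: ttggagggcaTATAAgtgctacttgctgca
Hbb-bs, chr7:103827939-103827968, minus strand: agggcagagcaTATAAggtgaggtaggatc
Hbb-bt, chr7:103813934-103813963, minus strand: cagcATTGGgtaTATAAagctgagcagggt
Alas2, chrX:150547377-150547406, plus strand: GGGTGGGGTGGGGTGggcggggctgagcag

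Each of the 4 globin genes had CCAAT in the first window and TATAA in the second, and the beta genes also had CACCC in the first. Among 32851 RefSeq promoters, 6.97% held CCAAT and 8.48% CACCC in the first window, and 4.75% held TATAA in the second. Alas2 had 1 GATA match on the minus strand in the first window, which 8.93% of promoters held there. Its second window held 3 CACCC matches on the minus strand in a row, a motif present there in 7.98% of promoters. A match describes letters only, and GENCODE places the start of each of the 5 genes further upstream than RefSeq does.

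Erythroid barcodes were shallow, and more so in the library labelled preSC_CracdKO. Their median was 1282 UMIs (quartiles 789.5 and 2180) and 49 genes there, against 3527 UMIs (2278 and 4366) and 127 genes in preSC_WT. Other barcodes, meaning all non-members with at most 15% mitochondrial UMIs, had medians of 6023 UMIs and 2580 genes in the library labelled preSC_CracdKO and 4030 and 2100 in preSC_WT. The lowest deposited total was 500 UMIs in either library, and the shallowest member had 500 in the library labelled preSC_CracdKO and 506 in preSC_WT. Only 8 members of the library labelled preSC_CracdKO and 15 of preSC_WT had 300 or more genes, so a usual gene minimum would remove most of them. Members shared 0 cell barcodes between the allografts, which shared 79 in all.

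**Figure D1:**
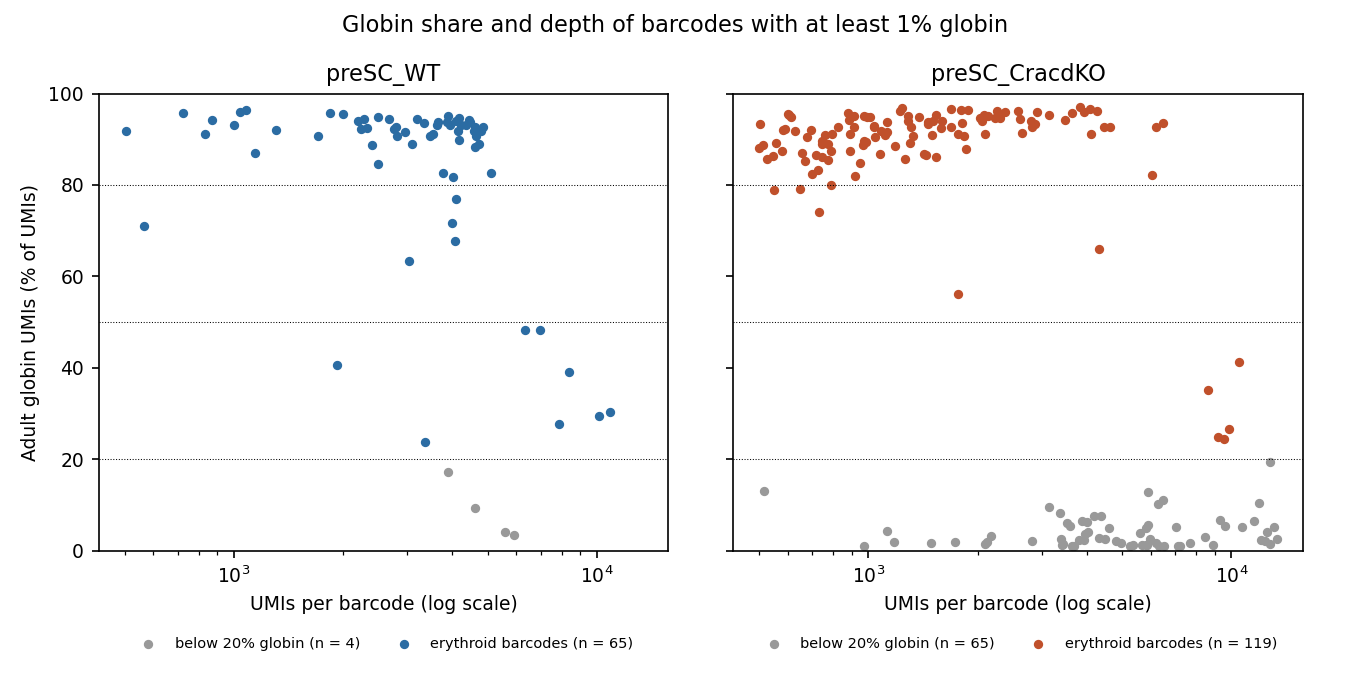
Adult globin as a percentage of UMIs against total UMIs (log scale) for each barcode with at least 1% globin; grey points lie below the 20% minimum and dotted lines mark 20%, 50% and 80%. Most erythroid barcodes sit above 80%, and the library labelled preSC_CracdKO has 65 barcodes between 1% and 20% where preSC_WT has 4.

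Globin filled most of a typical member. The median globin share was 91.9% in the library labelled preSC_CracdKO (range 24.5 to 97.1) and 91.7% in preSC_WT (23.7 to 96.4). Median mitochondrial shares were 0.108% and 0.0862%, against 2.87% and 1.67% in the other barcodes. No barcode at 20% globin or more exceeded the mitochondrial maximum, so that part of the rule removed 0. The nearest barcode outside the minimum had 19.5% globin in the library labelled preSC_CracdKO and 17.3% in preSC_WT, and the nearest inside had 24.5% and 23.7%.

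Which library held more erythroid barcodes depended on the depth demanded. At 500 UMIs or more the library labelled preSC_CracdKO had 119 and preSC_WT 65. At 1000 UMIs or more the counts were 73 (0.460% of barcodes that deep, 0.361 to 0.578) and 60 (0.371%, 0.283 to 0.477). At 2000 or more they were 35 (0.227%, 0.158 to 0.316) and 51 (0.371%, 0.276 to 0.487), the opposite order. At 3000 or more, 19 remained in the library labelled preSC_CracdKO and 39 in preSC_WT. The excess in the library labelled preSC_CracdKO therefore lay among barcodes under 1500 UMIs. Both shares come from tissue treated with red cell lysis buffer. With 1 library per group, genotype cannot be told apart from animal, graft, lysis or loading.

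**Figure D2:**
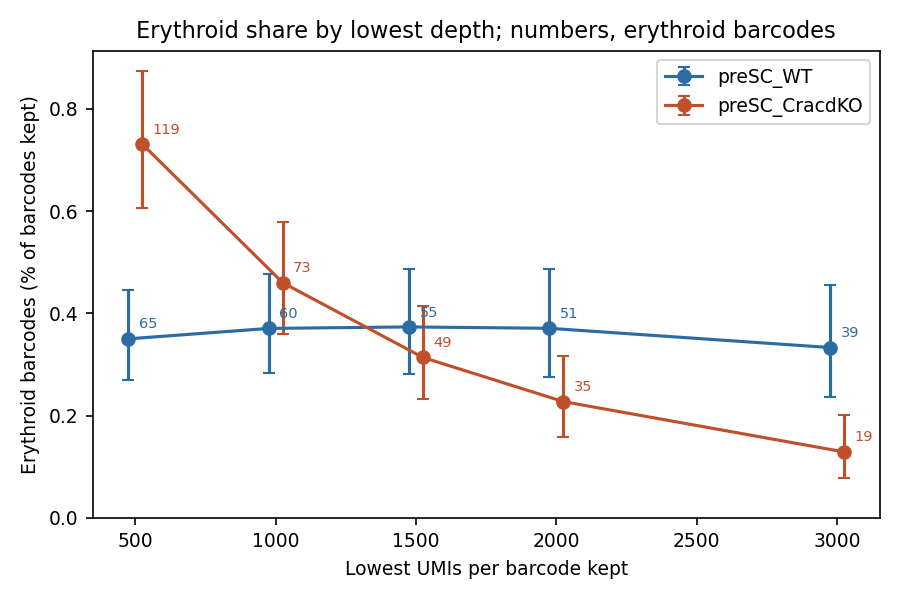
Share of erythroid barcodes among all barcodes at or above a lowest UMI total, with exact 95% binomial bars and the number of erythroid barcodes beside each point. The share in preSC_WT stays between 0.333% and 0.373%, while in the library labelled preSC_CracdKO it falls from 0.731% at 500 UMIs to 0.129% at 3000.

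Globin RNA was also found outside the members, unequally between the libraries. Of barcodes under 1% globin, 33.4% (5369 of 16069, 32.7 to 34.2) had at least 1 adult globin UMI in the library labelled preSC_CracdKO and 3.80% (702 of 18468, 3.53 to 4.09) in preSC_WT. Summed, globin made up 101.3 and 9.03 of every 1000000 UMIs there. Members held 86.8% of all globin UMIs of the library labelled preSC_CracdKO and 98.7% of those of preSC_WT. Medians of 6027 and 4030 UMIs per barcode lie behind these shares, so depth differed too. Free globin RNA, barcodes holding a red cell with another cell, and true low expression were not separated here.

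Beta globin UMIs outnumbered alpha UMIs in both libraries, far more so in preSC_WT. Members of preSC_WT held 28202 UMIs of Hba-a1, 20146 of Hba-a2, 99804 of Hbb-bs and 29037 of Hbb-bt. Members of the library labelled preSC_CracdKO held 46713, 30791, 90595 and 19122 in the same order. The alpha share of globin UMIs was 27.3% (exact interval 27.1 to 27.5) in preSC_WT and 41.4% (41.2 to 41.6) in the library labelled preSC_CracdKO, which is 2.67 and 1.42 beta UMIs for each alpha UMI. These intervals cover counting error only, not how reads matching both alpha copies were counted, and no spread between animals could be measured.

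The same difference was seen barcode by barcode. Alpha share ran from 17.4% to 56.0% in preSC_WT, with a median of 26.8% and a central 90% of barcodes between 20.2% and 32.8%. In the library labelled preSC_CracdKO it ran from 24.7% to 94.6%, with a median of 41.2% and a central 90% between 31.5% and 48.2%. An alpha share of 35% or more was found in 107 of 119 barcodes (89.9%, 83.0 to 94.7) there and in 3 of 65 (4.62%, 0.962 to 12.9) in preSC_WT. The ranges overlapped, yet few barcodes of either library reached the median of the other. Barcodes of 1 library share their source and are not replicates, so the counts describe these libraries.

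Barcodes differed among themselves by more than counting. The SD of alpha share over barcodes was 5.43 percentage points in preSC_WT, where counting alone gives 1.02, and 7.06 in the library labelled preSC_CracdKO, where it gives 1.54. The highest value, 94.6%, came from a barcode of 500 UMIs with 255 of Hba-a1, 161 of Hba-a2, 15 of Hbb-bs and 9 of Hbb-bt. The next highest was 57.0%, from 881 UMIs, and the highest in preSC_WT was 56.0%, from 566 UMIs. All 3 were barcodes of under 1000 UMIs, and such extreme values widen the SD. The quartiles, which they hardly move, were 24.25% and 29.86% in preSC_WT and 37.79% and 44.55% in the library labelled preSC_CracdKO.

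The alpha difference was seen at every depth. From 500 to under 1000 UMIs the median alpha share was 29.7% over 5 barcodes of preSC_WT and 41.0% over 46 of the library labelled preSC_CracdKO. From 1000 to under 2000 UMIs it was 24.9% over 9 and 40.5% over 38. From 2000 to under 4000 UMIs it was 25.8% over 26 and 41.9% over 21, and at 4000 or more 28.3% over 25 and 40.6% over 14. The library labelled preSC_CracdKO was higher in each of the 4 ranges. Globin in the barcodes under 1% globin was 23.5% alpha (20.7 to 26.6) in preSC_WT and 39.2% (38.3 to 40.1) in the library labelled preSC_CracdKO. Both values were below those of the members of the same library, and their order between libraries was the same.

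Within beta globin, Hbb-bt took the smaller share. It was 22.5% (22.3 to 22.8) of Hbb-bs plus Hbb-bt in preSC_WT and 17.4% (17.2 to 17.6) in the library labelled preSC_CracdKO. Per barcode the median was 22.4% in preSC_WT (lowest 8.81, highest 29.9) and 15.4% in the library labelled preSC_CracdKO (0.663 to 37.5). This value moved with depth. From the shallowest to the deepest of the 4 ranges the medians were 15.8%, 20.9%, 22.5% and 22.4% in preSC_WT and 11.6%, 15.0%, 18.1% and 23.0% in the library labelled preSC_CracdKO. At 4000 UMIs or more the 2 libraries were thus 22.4% and 23.0%. Spearman's rho between Hbb-bt share and total UMIs was 0.34 over 65 barcodes of preSC_WT and 0.48 over 119 of the library labelled preSC_CracdKO, with both values taken from the same UMIs. For alpha share it was 0.26 and 0.04.

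The alpha pair differed little. Hba-a2 made up 41.7% (41.2 to 42.1) of alpha UMIs in preSC_WT and 39.7% (39.4 to 40.1) in the library labelled preSC_CracdKO. Since the transcripts of this pair match over the 74 bases after the stop that both have, these 2 values carry the uncertainty of how such reads were assigned.

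**Figure D3:**
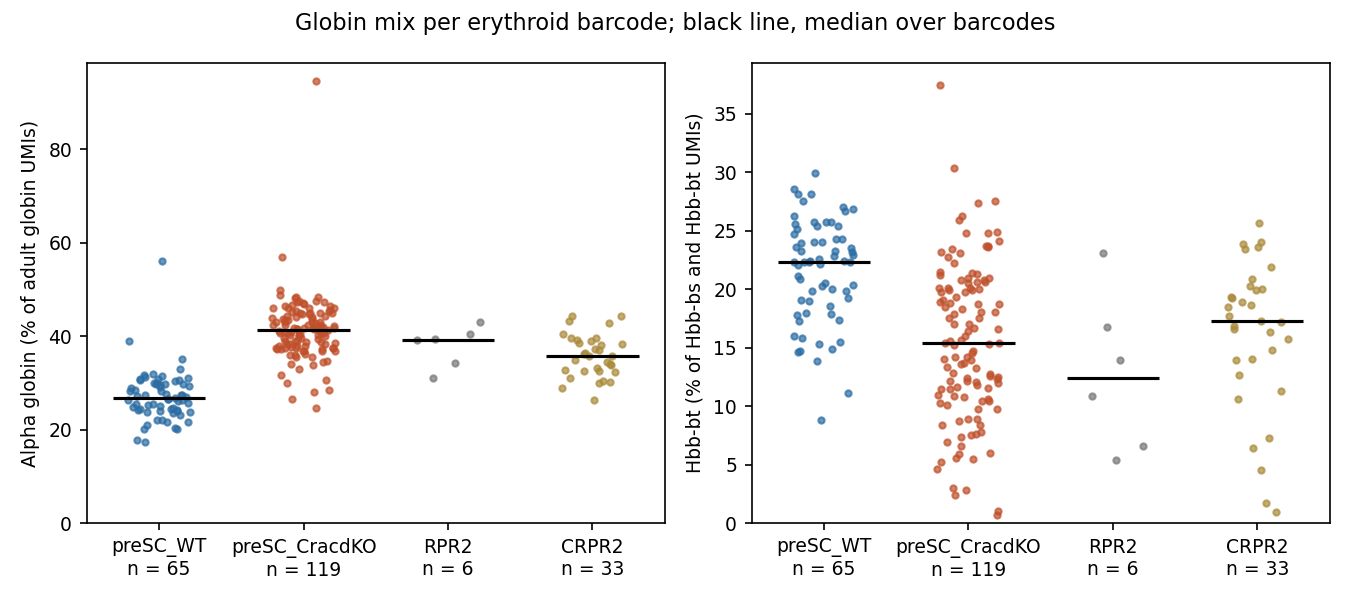
Alpha share of adult globin UMIs (left) and Hbb-bt share of beta UMIs (right), 1 point per erythroid barcode, black lines at medians; the lung libraries RPR2 and CRPR2 are shown under the same rule. Medians of alpha share are 26.8%, 41.2%, 39.2% and 35.7% from left to right.

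The lung tumours, run through the same rule, gave 6 barcodes in RPR2 and 33 in CRPR2. Their summed alpha shares were 38.1% (37.6 to 38.7) and 36.4% (36.1 to 36.7), and medians over barcodes 39.2% and 35.7%. Of the 4 libraries, preSC_WT stood lowest and the other 3 lay within 36.4% to 41.4%. Hbb-bt made up 14.1% and 18.02% of beta globin in RPR2 and CRPR2. The lung files were written by Cell Ranger 6.1.2 and the allograft files by 5.0.0, per their headers, whereas the 2 allograft libraries shared a version.

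Embryonic globins were not detected. Hba-x, Hbb-y, Hbb-bh1 and Hbb-bh2 each had 0 UMIs in the members of either library. Taken as 3 counts of the total, the limit that a count of 0 allows was 55.3 CPM in preSC_WT and 60.8 in the library labelled preSC_CracdKO. The minor theta-like gene Hbq1b had 9 UMIs in 7 barcodes of preSC_WT and 6 in 5 of the library labelled preSC_CracdKO, and Hbq1a had 2 and 0.

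RNA other than globin came mostly from a few members. The 8 barcodes of preSC_WT with 20% to under 50% globin had a median of 2150 genes and held 66.5% of the members' 54247 other UMIs. The 5 of the library labelled preSC_CracdKO had a median of 2577 genes and held 66.9% of 49326. Another 5 and 6 barcodes had 50% to under 80% globin. The remaining 52 and 108 barcodes had 80% globin or more, with medians of 122.5 and 47 genes, and held 13534 and 13486 other UMIs. These are ranges of 1 share and not cell types.

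Summed, members under 80% globin carried neuroendocrine RNA near the level of the other barcodes. Their UMIs outside globin lay mainly at 20% to under 50% globin, 36056 in preSC_WT and 33002 in the library labelled preSC_CracdKO. Barcodes at 50% to under 80% held 4657 and 2838, so the sums say little about them. The 13 neuroendocrine genes of the list, Chga, Calca and Ncam1 among them, summed to 14050 CPM in the members below 80% of preSC_WT and 12610 in its other barcodes. In the library labelled preSC_CracdKO the sums were 4408 and 3667. At 80% globin or more they were 1478 and 667.4, from 20 and 9 UMIs. The level of erythroid genes below is therefore given for the range at 80% or more, since the members as a whole mix in these barcodes.

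Among all members, 402 genes reached 20 UMIs in preSC_WT and 308 in the library labelled preSC_CracdKO. Of these, 103 (25.6%) and 61 (19.8%) were at least 2-fold higher than in the other barcodes, with 10 CPM added to each level, and 5 (1.24%) and 3 (0.974%) at least 2-fold lower. Since a gene rare in these shallow barcodes could reach 20 UMIs only by being high, the list counts below are descriptions and support nothing by themselves.

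Haem synthesis was led by Alas2. At 80% globin or more Alas2 had 204 UMIs in 50 of 52 barcodes of preSC_WT and 203 in 75 of 108 of the library labelled preSC_CracdKO. This is 15070 (exact Poisson interval 13080 to 17290) and 15050 (13050 to 17270) CPM, against 0.215 and 3.41 in the other barcodes. On this scale the level in both libraries was the same within counting error, and among genes with 20 UMIs none had a larger ratio over the other barcodes in the library labelled preSC_CracdKO. Fech, which inserts the iron, stood at 2143 and 2669 CPM against 22.6 and 15.7, and Slc25a39, a mitochondrial carrier, at 3399 and 3114 against 108.6 and 148.9. Over all members, including those under 80% globin, Alas2 stood at 4764 CPM in the library labelled preSC_CracdKO and 4498 in preSC_WT. Of the 15 listed genes these 3 reached 20 UMIs in each library, and all 3 were at least 2-fold above the other barcodes. Alas1, the enzyme used outside red cells, and the exporter Flvcr1 had 0 UMIs in members of both libraries. Urod, an enzyme midway in the pathway, was scarce, with 12 and 9 UMIs over all members.

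Of the iron genes, both ferritin chains were the most abundant. Ftl1, the ferritin light chain, stood at 26900 and 29880 CPM in the range at 80% or more, and Fth1, the heavy chain, at 20250 and 12610, in the order preSC_WT and the library labelled preSC_CracdKO. Slc25a37, the mitochondrial iron importer mitoferrin, stood at 3621 and 2373, against 15.3 and 14.4 in other barcodes. Glrx5, which helps build iron-sulphur clusters, stood at 4877 and 1112. These 4 of 10 listed genes passed 20 UMIs in each library, and all 4 were at least 2-fold higher than in other barcodes. The transferrin receptor Tfrc, through which cells take up iron, had 4 and 3 UMIs in all members.

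Few genes of the membrane list were abundant. Slc4a1, the band 3 anion exchanger, had 28 UMIs in 21 members of preSC_WT and 13 in 12 of the library labelled preSC_CracdKO, and its level in other barcodes was 0.0107 and 0.0544 CPM. Epb41, protein 4.1 of the skeleton, stood at 4507 and 2966 CPM at 80% globin or more, against 91.9 and 135.6. In preSC_WT 4 of the 22 genes passed 20 UMIs and 3 were at least 2-fold higher. In the library labelled preSC_CracdKO 2 passed and both were higher. The blood group and adhesion genes Kel, Ermap, Gypc and Icam4 had 0 in both libraries.

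Enzymes that protect or tune haemoglobin were among the most abundant transcripts after globin. At 80% globin or more, Bpgm, which makes the 2,3-bisphosphoglycerate that lowers oxygen affinity, stood at 23350 (20840 to 26070) in preSC_WT and 9936 (8325 to 11770) CPM in the library labelled preSC_CracdKO. The antioxidant genes Prdx2 and Gpx1 stood at 22680 and 21500 in preSC_WT and at 14310 and 10680 in the library labelled preSC_CracdKO. Car2, a carbonic anhydrase, stood at 9679 and 4820 and Blvrb, biliverdin reductase B, at 11300 and 3856. Of the 11 measured genes 8 in preSC_WT and 6 in the library labelled preSC_CracdKO reached 20 UMIs, all at least 2-fold higher than in other barcodes. Car1 and the red cell pyruvate kinase Pklr had 0 UMIs in members. Ahsp was not analysed here.

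Genes of terminal maturation formed the longest list of raised genes. In preSC_WT 14 of 21 passed 20 UMIs and 13 were at least 2-fold higher, and in the library labelled preSC_CracdKO 11 passed and 11 were higher. Mkrn1, a ubiquitin ligase, stood at 20390 and 8602 CPM at 80% globin or more. The ubiquitin gene Ubb stood at 30810 and 16830, and Ube2l6, a conjugating enzyme, at 4359 and 3188. Bnip3l, the receptor that marks mitochondria for removal, stood at 4064 and 3856, and the autophagy genes Gabarapl2 and Map1lc3b at 6872 and 8054 in preSC_WT and 3040 and 4301 in the library labelled preSC_CracdKO. Fam46c, a poly(A) polymerase gene, and Tspo2, an erythroid porphyrin and cholesterol transporter, stood at 4877 and 5339, and at 1330 and 1631. Trim58, a ubiquitin ligase of enucleating cells, had 0.

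**Figure D4:**
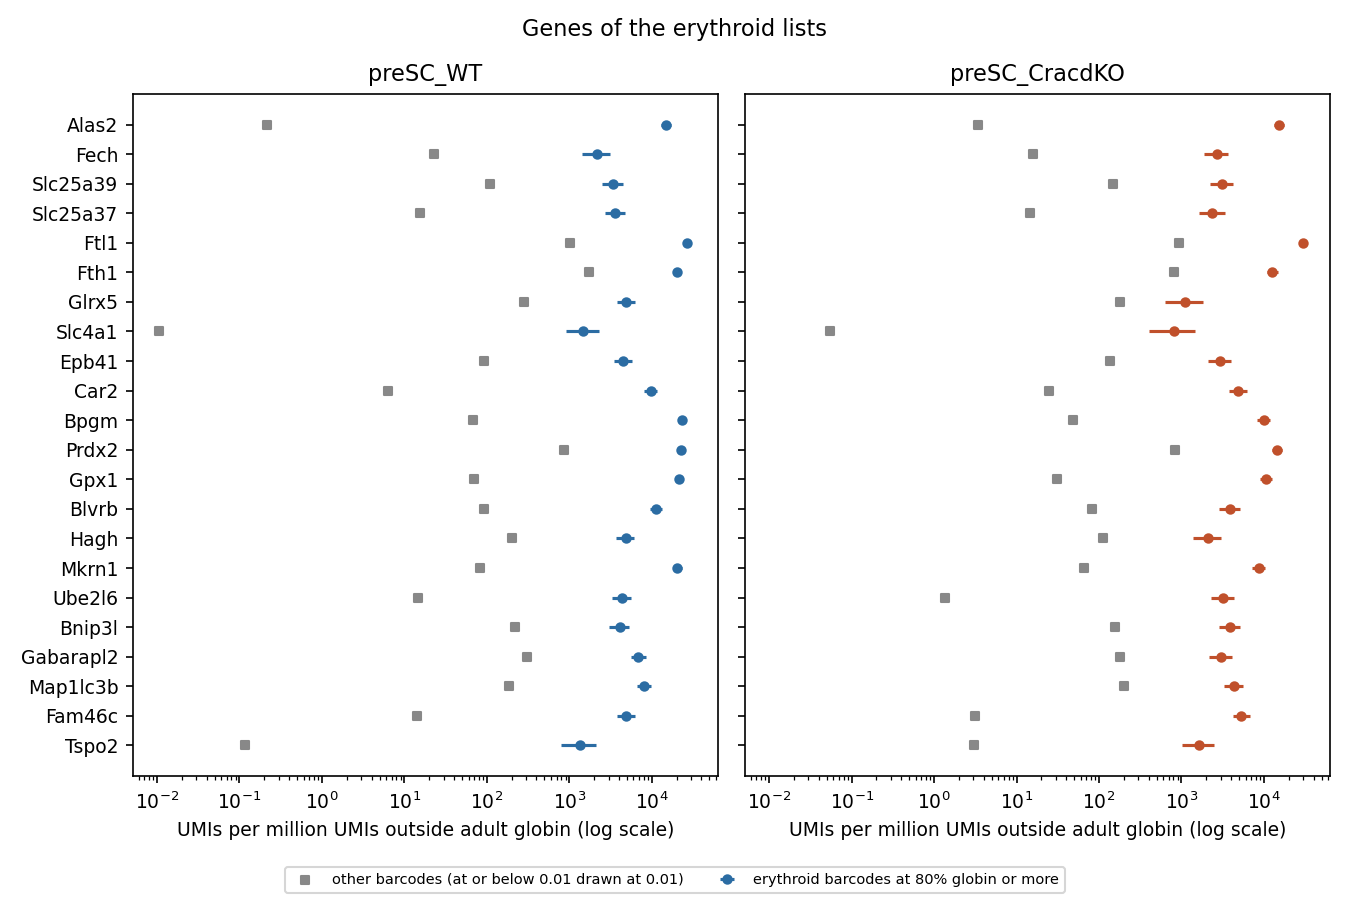
Level of 22 genes of the erythroid lists in barcodes at 80% globin or more (circles, exact 95% Poisson bars) and in the other barcodes of the same library (grey squares), in CPM, log scale. Alas2 lies at 15070 and 15050 CPM in the members and at 0.215 and 3.41 in the other barcodes.

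Regulators and early markers had few UMIs in these shallow barcodes. Of 13 transcription factor and receptor genes none reached 20 UMIs in the members. Gata1, Klf1, Tal1, Nfe2, Gfi1b and Epor, the erythropoietin receptor, had 0 in both libraries, and in all 6 genes of preSC_WT and 9 of the library labelled preSC_CracdKO were at 0. Lmo2 had 12 UMIs in 11 barcodes of preSC_WT and 1 in the library labelled preSC_CracdKO, and Foxo3 had 8 and 3. Over all members the 13 genes summed to 534.6 CPM in preSC_WT, against 173 in its other barcodes. In the library labelled preSC_CracdKO the sums were 162.2 and 208.8. The 7 progenitor genes, Kit and Gata2 among them, summed to 13 and 6 UMIs. This is 239.6 and 121.6 CPM, against 200.6 and 116.3 in the other barcodes. The low counts of these 2 lists thus show no general depletion against the other barcodes. At 80% globin or more, 5 of 10 cell cycle genes in preSC_WT and 4 in the library labelled preSC_CracdKO were at 0, and Mki67 had 1 UMI in each. Ube2c, a conjugating enzyme of mitosis, was the exception in that list, with 38 UMIs in 21 barcodes and 16 in 13, or 2808 and 1186 CPM against 358.5 and 570.9 in other barcodes.

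Markers of other blood, vessel and stromal cells were mostly at 0. Neutrophil, endothelial and pericyte lists had 0 UMIs in members of both libraries. In the other barcodes they summed to 4.027, 70.6 and 68.03 CPM in preSC_WT. In the library labelled preSC_CracdKO they summed to 25.47, 9.33 and 12.11. In the members 3 counts make 55.3 and 60.8 CPM, and only the endothelial and pericyte sums of preSC_WT exceed this. These 0 counts therefore say little. The platelet list summed to only 7.699 and 9.466 CPM in the other barcodes. Of 8 platelet genes 7 were at 0 in preSC_WT, where Pf4 had 1 UMI, and 8 in the library labelled preSC_CracdKO. T cell, B cell, macrophage and fibroblast lists had 2, 28, 22 and 2 UMIs in preSC_WT and 0 in the library labelled preSC_CracdKO. Of the 28 B cell UMIs, 19 were Igkc in 2 barcodes. Members of preSC_WT thus carried some immune RNA, in few barcodes. Their B cell, macrophage and T cell lists summed to 516.2, 405.6 and 36.87 CPM, against 805, 405.7 and 118.5 in the other barcodes there. In the other barcodes of the library labelled preSC_CracdKO these lists summed to 14.98, 41.64 and 4.996 CPM, and the fibroblast list to 38.78. Each is under the 60.8 CPM that 3 counts make in its members, so their 0 counts say little. The dissociation stress list, Fos and Jun among its 12 genes, summed to 725 UMIs in preSC_WT, of which 41 lay at 80% globin or more. In the library labelled preSC_CracdKO the sums were 34 and 6. Over all members this is 13360 CPM in preSC_WT and 689.3 in the library labelled preSC_CracdKO. The other barcodes stood at 15010 and 983.2, so they differed between libraries in the same direction.

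The 20 genes with the highest ratio over other barcodes in the library labelled preSC_CracdKO included several outside the lists. Apol11b, an apolipoprotein L family gene, stood at 2818 CPM at 80% globin or more against 0.0635 in other barcodes there, and at 2734 against 0.161 in preSC_WT. Rsad2, an interferon-induced antiviral gene, stood at 4523 against 12.7, and at 4359 against 34.2 in preSC_WT. Fam213a, a redox gene, stood at 6303 against 43.5, and at 4729 against 39.9 in preSC_WT. Isg20, an interferon-induced exonuclease of the maturation list, stood at 3337 and at 6133 in preSC_WT. On the same scale Apol11b and Rsad2 were level between the libraries within counting error, at ratios of 1.03 (0.638 to 1.67) and 1.04 (0.713 to 1.51). Fam220a and the unnamed gene Gm32051 completed the genes outside the lists, with Camk1d, described next.

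Of 7 transcripts outside the erythroid lists, 6 were at least 2-fold higher in the library labelled preSC_CracdKO, and the remaining one, AY036118, was not. Gm42418, at chr17:39846958-39848788 on mm10 and overlapped on the other strand by AY036118, stood at 253400 CPM at 80% globin or more, against 86890 in preSC_WT. Camk1d, a calcium-dependent kinase gene, stood at 36260 (33120 to 39620) against 2291 (1556 to 3251), a ratio of 15.8 (11.0 to 23.6). Cdk8, Cmss1, Lars2 and Gphn had ratios of 9.53, 5.61, 2.90 and 2.34, and AY036118 1.36. In the other barcodes the log2 ratio of Camk1d was 0.90 and that of Gm42418 1.19. Together the 7 held 39.4% of UMIs outside globin in the library labelled preSC_CracdKO and 12% in preSC_WT. As a share of all UMIs they were 2.95% in these members and 2.89% in the other barcodes of the library labelled preSC_CracdKO, and 1.02% and 1.33% in preSC_WT. Counting by strand is not stated in the sources used here. How reads of the overlap were split between Gm42418 and AY036118 is thus not known, and their separate ratios rest on that split. The 7 were singled out after their values were seen.

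These transcripts shift every other level, so the comparison of libraries was read on more than 1 scale. At 80% globin or more, 190 genes had 20 UMIs over both libraries. The library labelled preSC_CracdKO was at least 2-fold higher in 16 (8.42%) and lower in 53 (27.9%), with a median log2 ratio of -0.39. With the 7 left out of the totals the counts were 22 and 25 of 183, with a median of 0.13. On all UMIs, globin included, they were 13 and 61 of 190, with a median of -0.51. The balance of higher and lower genes is thus a matter of scale. Of the 16 higher genes 6 were of the 7, 6 encoded ribosomal proteins and 2 were mitochondrial. Of the 53 lower genes 12 belonged to the erythroid lists and 4 encoded ribosomal proteins. The lower ones were 0 of 3 haem, 1 of 5 iron, 0 of 3 membrane, 6 of 8 enzyme and 5 of 13 maturation genes. How many of the 190 encoded ribosomal proteins was not counted, so whether those counts are an excess on either side was not assessed.

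**Figure D5:**
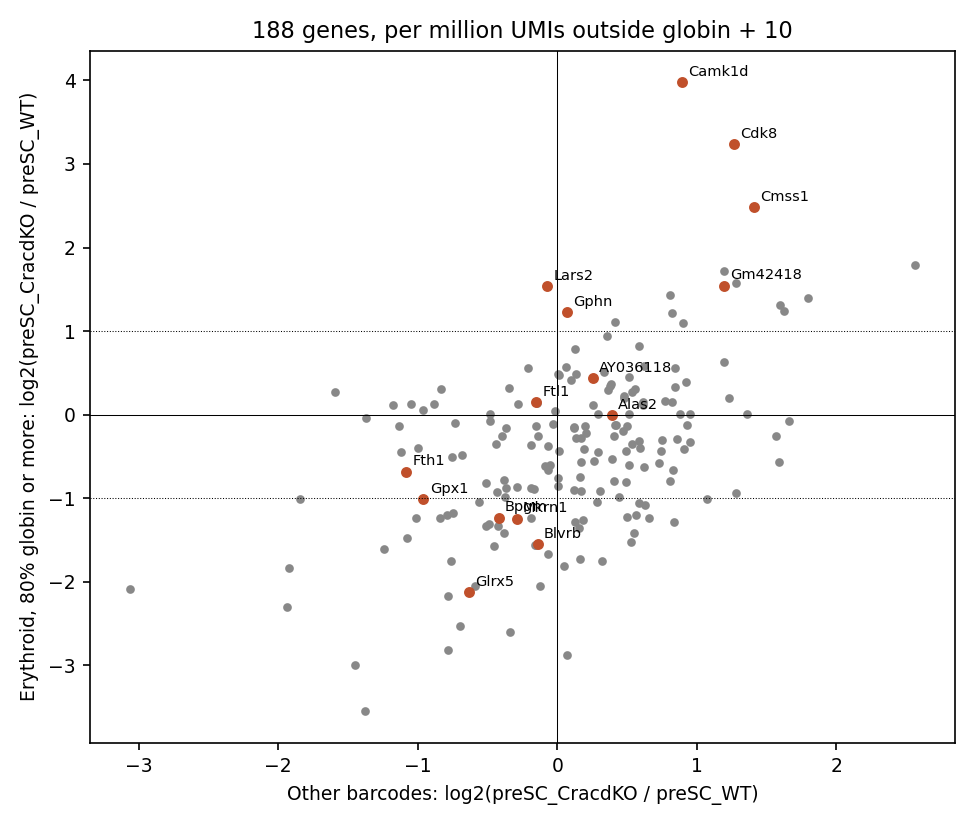
Log2 ratio of the library labelled preSC_CracdKO over preSC_WT in erythroid barcodes at 80% globin or more (vertical) against the same ratio in the other barcodes (horizontal), for the 188 genes above 0 in both libraries; dotted lines mark 2-fold. Camk1d, Cdk8 and Cmss1 stand highest, while Alas2 and Ftl1 lie near 0 on the vertical axis.

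The erythroid lists are given beside all genes at 80% globin or more, of which 27.9% were at least 2-fold lower with a median log2 ratio of -0.39, and 25 of 183 with a median of 0.13 once the 7 were left out. Differences between lists were not tested. All 8 enzyme genes with 20 UMIs were lower in the library labelled preSC_CracdKO on the first scale, 6 of them by at least 2-fold, with a median log2 ratio of -1.11. With the 7 left out all 8 were still below 0 and 1 passed 2-fold, Blvrb, with a median of -0.57. Bpgm was 2.35-fold (1.91 to 2.90) and Blvrb 2.93-fold (2.13 to 4.10) higher in preSC_WT on the first scale. The 3 haem genes had a median log2 ratio of 0.00, or 0.54 with the 7 left out, where all 3 were above 0. Of 5 iron genes Glrx5 was lower by at least 2-fold on both scales, at 15 UMIs against 66, a log2 ratio of -2.12 or -1.59. The maturation list had 5 of 13 at least 2-fold lower and a median of -0.88, or 0 of 13 and -0.34 with the 7 left out, and 8 of 13 and -1.04 on all UMIs. Mkrn1 was 2.37-fold (1.90 to 2.97) higher in preSC_WT, whereas Ftl1 (log2 ratio 0.15), Fam46c (0.13) and Bnip3l (-0.08) lay near 0. On all UMIs, globin included, the enzyme list had 7 of 8 at least 2-fold lower and a median of -1.21, and the haem list 0 of 3 and -0.18.

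Over all members, the RNA of members under 80% globin entered this comparison, and its cells of origin were not separated. Of 720 genes with 20 UMIs over both, 82 (11.4%) were at least 2-fold higher and 144 (20%) lower in the library labelled preSC_CracdKO. The log2 ratios followed those of the other barcodes, with Spearman's rho of 0.78 across 720 genes, against 0.47 across the 190 genes at 80% globin or more. Genes are not independent replicates, and both sets share their libraries. The lowest 10 were Ccl5, Fos, Krt8, Wfdc2, Cd74, Atf3, Epcam, Dnajb1, Apoe and Ier2, of which 9 had 0 UMIs in the library labelled preSC_CracdKO. All 141 Ccl5 UMIs lay in 1 barcode of preSC_WT, and 140 of 141 Fos and 90 of 93 Krt8 UMIs below 80% globin. Apoe was different, with 34 of its 35 UMIs at 80% or more but in 3 barcodes in all. Among the highest 10, Camk1d and Cdk8 were joined by Rtn1, Cited1, Pgk1, Nelfcd, Mif, Gdpd1, Aldoa and Rpl23a, none of which passed 8 UMIs at 80% globin or more in the library labelled preSC_CracdKO.

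Depth shaped how often a gene was seen. Unthinned, Alas2 was found in 71.4% of members of the library labelled preSC_CracdKO (62.4 to 79.3) and 95.4% of preSC_WT (87.1 to 99.0). With each member thinned to 500 UMIs the shares were 42.9% (33.8 to 52.3) and 46.2% (33.7 to 59.0). Other barcodes had an Alas2 UMI in 2.19% and 0.103%, unthinned and at the greater depths given above. Camk1d kept its difference, at 72.3% (63.3 to 80.1) and 7.69% (2.54 to 17.1) after thinning. Bpgm was found in 21.0% (14.1 to 29.4) and 47.7% (35.1 to 60.5), and Mkrn1 in 25.2% (17.7 to 34.0) and 50.8% (38.1 to 63.4). Unthinned, the other barcodes had Camk1d in 93.25% and 64.56%, Bpgm in 25.77% and 24.74% and Mkrn1 in 33.51% and 29.69%. Median genes per barcode were 27 and 35 at 500 UMIs, against 49 and 127 before. The order of these medians between libraries was unchanged, with a smaller gap.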

How the data were processed

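The data are 4 single-cell RNA libraries, 1 per group. The authors deposited raw UMI counts as whole numbers for every gene and barcode; per the file headers the lung matrices come from Cell Ranger 6.1.2 and the allograft ones from 5.0.0. In the submitters' processing notes, Cell Ranger stands with 6.1.2, Scanpy and Seurat with 1.8.2, and the build is mm10. How cells were called is not stated.

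Counts were summed over members and divided by their UMIs outside the 4 adult globin genes. Ratios had 10 CPM added, needed 20 UMIs and were called at 2-fold. With 1 library per group no test between groups was run. Intervals are exact 95% binomial (Clopper-Pearson), Poisson or, for ratios, conditional binomial, and cover counting error only. Doublets were kept. Scrublet (scanpy 1.11.5, seed 1) marked 423 of 18559 barcodes in preSC_WT, 0 of them members, and 0 of 16282 in the library labelled preSC_CracdKO, where it did not work. The calculation of ratios was checked on simulated counts with known folds. Python 3.11.15, numpy 2.4.6, scipy 1.17.1 and pandas 2.3.3 were used.

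Named genes come from 20 lists, the 25 most abundant in members of the library labelled preSC_CracdKO, the 20 with the highest ratio there and the 10 at each end between libraries. Members and lists were chosen with earlier results of these data known. Gene positions are from GENCODE. Some listed genes are not reported here.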

Additional observations from a re-analysis of the deposited data

How the results depend on the processing

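Alpha share stayed higher in the library labelled preSC_CracdKO under every alternative run: at least 300 genes gave 39.9% there and 27.7% in preSC_WT, at least 2000 UMIs 41.7% there, and preSC_WT had 26.8% as a median over barcodes and 27.6% without the highest Scrublet scores. The share of barcodes was the least stable. In the library labelled preSC_CracdKO it was 0.0495% at 300 genes, 0.460% at 1000 UMIs and 0.227% at 2000, and in preSC_WT 0.0811% at 300 genes, so the order between libraries turned at 300 genes and 2000 UMIs. Hbb-bt share in the library labelled preSC_CracdKO was 16.9% at 50% globin or more, 22.4% at 300 genes, 15.4% as a median and 17.2% without the highest Scrublet scores. Alas2 over its members was 2810 CPM at 10% globin or more, 13350 at 50%, 551 at 300 genes and 7986 without those scores, since the few barcodes of low globin share carry most other RNA. Genes past 2-fold, 226 over all members, were 88 with 50 UMIs, 1341 with 5 UMIs, 85 at 50% globin and 69 at 80%. A mitochondrial maximum of 5% or none changed no value. Scrublet calls gave no value in the library labelled preSC_CracdKO. The minima of UMIs, the highest Scrublet scores, the 80% range, the scales and the preSC_WT globin mix were chosen after seeing the data. At 80% globin or more the limit that a count of 0 allows, taken as 3 counts, was 221.7 CPM in preSC_WT and 222.5 in the library labelled preSC_CracdKO. No paired analysis was possible because each group is 1 library.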
